A study of Neurospora crassa with 24 samples.

Results

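The comparison described here sets *Neurospora crassa* cultures harvested 18, 20 and 22 h after lights off against cultures harvested 6, 8 and 10 h after lights off. Both the WT and the ΔMSN1 strain were used, so that each window held 6 cultures, 3 of each strain, and the comparison used 12 of the 24 libraries of the series. The libraries of each window were taken by time label and strain, and the rule used no measured value, though the comparison was proposed with earlier results of these data known. The 12 h between the windows cover a change of circadian phase, of time spent in darkness and of culture age, and these cannot be told apart in this design.

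The series followed poly(A) RNA by sequencing every 2 h from 0 to 22 h after lights off, with 1 culture per strain and time. WT was FGSC #2489 with the wild type genotype, and ΔMSN1 was the knockout FGSC #11345, which lacks msn-1 (NCU02671), the gene of a zinc finger transcription factor related to the yeast stress regulators Msn2 and Msn4. All cultures of both strains grew in liquid Vogel's medium, germinated in light, passed 2 days of light and dark periods of 11 h each and were then kept in the dark, and the labels name no added agent. Cultures were moved to the dark at staggered times, so the hour after lights off is not the hour of the day at harvest. Each time point came from 1 culture, so p-values rest on the spread among neighbouring times of the same window, and part of that spread is change within the window.

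*N. crassa* keeps circadian time with a feedback loop in which the White Collar complex of WC-1 and WC-2 activates frq, and the FRQ protein, held by FRH and phosphorylated by casein kinase CK-1a, inhibits that complex. The same White Collar complex is the blue light receptor, and VVD, a small blue light receptor made under its control, dampens the light response. In darkness the loop drives clock-controlled genes, among them genes for the coat of conidia, the asexual spores, and for carbon metabolism.

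Library totals of estimated counts were 5206583 to 9829687 in the 6 to 10 h window and 2458212 to 5530801 in the 18 to 22 h window, a ratio of medians of 1.68. Only the WT culture of 8 h, the lowest early total, and the ΔMSN1 culture of 20 h, the highest late total, overlapped across the windows. All levels below are counts per 1000000 counts of the library (CPM) after scaling for library composition by the trimmed mean of M values (TMM). The knockout label held in all libraries: msn-1 lay between 27.8 and 49.5 CPM in the 6 WT libraries, at 0 in 5 of the ΔMSN1 libraries and at 0.0396 CPM in the ΔMSN1 library of 10 h.

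Of 7373 genes tested, 15 passed an adjusted p of 0.05 in edgeR's quasi-likelihood test with strain as a block, which is 0.203% of the genes tested. Of these, 9 (0.122%) were higher and 6 (0.0814%) lower at 18 to 22 h. At an unadjusted p under 0.05 there were 867 genes, or 11.8%, of which 449 (6.09%) were higher and 418 (5.67%) lower, and the median log2 fold change over all genes tested was -0.00354. The windows did not overlap in either strain, in the same direction, for 124 genes, 1.68% of those tested, with 72 higher (0.977%) and 52 lower (0.705%). Genes that take up copper and a ferric reductase were among those that rose, while the light receptor gene vvd and the spore genes eas and con-8 fell.

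All 15 called genes changed in the same direction in both strains, and in 14 of them the windows did not overlap in either strain. Since these genes were called on the same 12 libraries, this count describes them and adds no support. Of the 15, 7 carry a gene symbol or a description and 8 have neither or are described as hypothetical proteins.

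**Figure D1:**
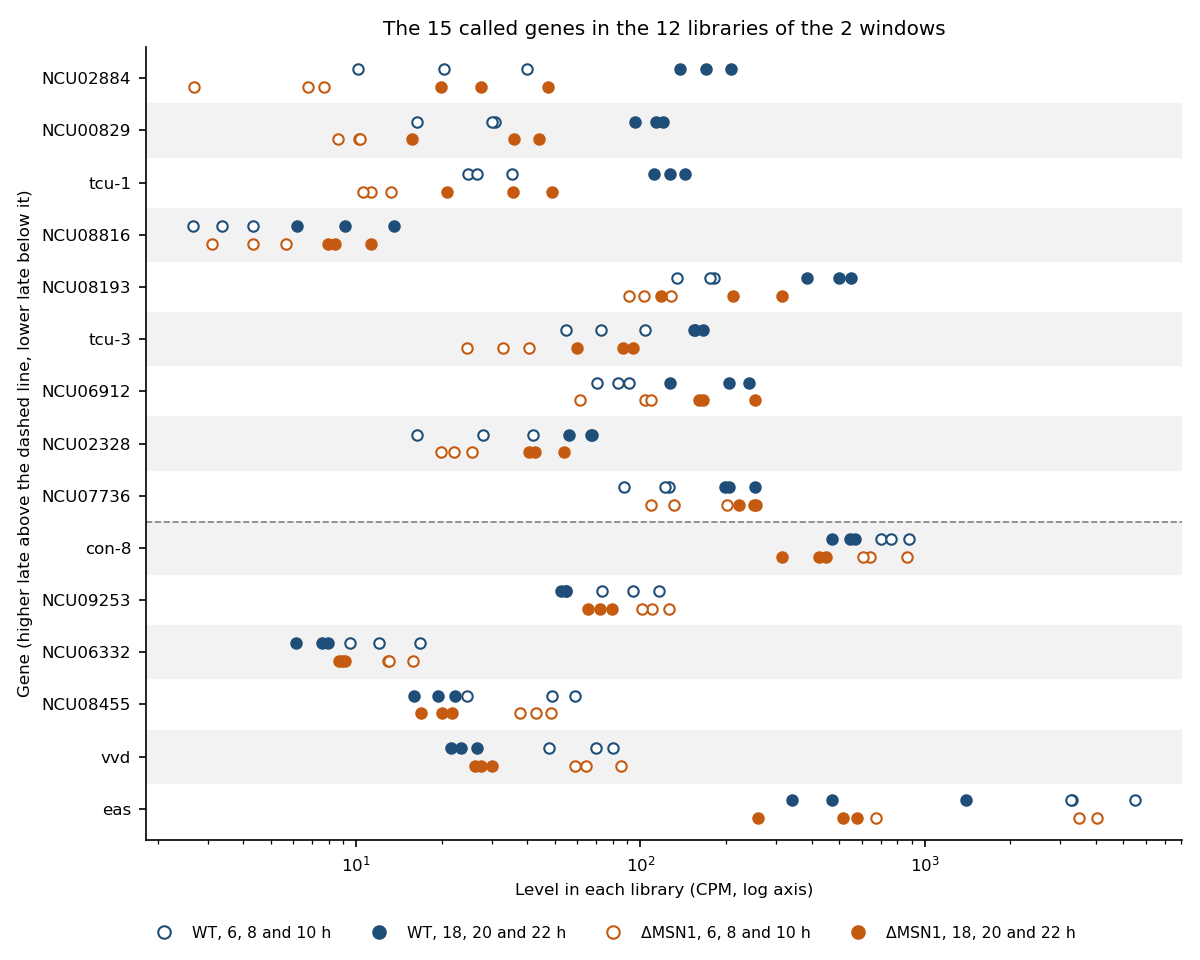
Level of each of the 15 called genes in the 12 libraries, in CPM on a log axis, with open points for 6, 8 and 10 h and filled points for 18, 20 and 22 h; WT is blue and ΔMSN1 orange. Within each strain the filled points lie apart from the open points in every gene except NCU08193, where 1 ΔMSN1 library of the late window, at 118 CPM, lies below 1 of the early window, at 128 CPM.

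The copper transporter gene tcu-1 (NCU00830), which encodes a Ctr family protein that carries copper across a membrane, rose. In WT it read 24.7, 35.3 and 26.5 CPM at 6, 8 and 10 h and 127, 112 and 143 CPM at 18, 20 and 22 h. In ΔMSN1 the values were 11.3, 10.6 and 13.3 CPM in the early window and 48.8, 35.5 and 20.9 CPM in the late window. The windows were clear of each other in both strains, and the late ΔMSN1 values fell from 18 to 22 h, where the 20.9 CPM lay below all early WT values. Window means were 28.8 ± 5.64 and 127 ± 15.1 CPM in WT and 11.8 ± 1.41 and 35.1 ± 14.0 CPM in ΔMSN1 (SD, n = 3). The log2 fold change over 12 libraries was 1.88 (SE 0.19, edgeR adjusted p = 0.000671), a 3.68-fold higher level.

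The next gene on the chromosome, NCU00829, is described as a ferric reductase, a class of surface enzymes that reduce metal ions before uptake. WT had 16.4, 30.7 and 30.1 CPM early and 120, 113 and 96.0 CPM late. ΔMSN1 had 8.6, 10.2 and 10.3 CPM early and 44.0, 36.0 and 15.7 CPM late. Its late values again fell toward 22 h in both strains and stayed above the early values of the same strain. The gene thus had a log2 fold change of 1.92 (SE 0.22, edgeR adjusted p = 0.00189), or 3.79-fold. The counting is not stated to use strand, and whether reads of these neighbours were shared was not tested.

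A further copper transporter gene, tcu-3 (NCU07428), rose less. WT read 54.7, 104 and 72.8 CPM early and 154, 166 and 155 CPM late, and ΔMSN1 read 40.6, 24.6 and 32.9 CPM early and 93.9, 87.0 and 59.8 CPM late. Both strains showed the higher late values, with a wider early spread in WT, where the 8 h library stood at 104 CPM. The log2 fold change was 1.17 (SE 0.17, edgeR adjusted p = 0.0175), or 2.25-fold. The remaining transporter of the family, tcu-2 (NCU03281), did not pass, with 260 to 366 CPM in the early window and 266 to 408 CPM in the late window and a log2 fold change of -0.05 (SE 0.11, edgeR adjusted p = 0.923).

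Among other genes of copper and iron handling, gathered after the data were seen, sod-1, the copper and zinc superoxide dismutase gene, had a log2 fold change of -0.13 (edgeR adjusted p = 0.79), and sre, a regulator of iron uptake, had -0.24 (edgeR adjusted p = 0.456). The laccase gene lacc, which encodes a copper enzyme, had a log2 fold change of 1.43 (SE 0.51, edgeR adjusted p = 0.301) that did not pass. Its late ΔMSN1 values were 12.1, 16.5 and 99.2 CPM, so that the 22 h culture stood far above the other late cultures of the strain. The copper metallothionein gene cmt was listed at 0 in all 12 libraries.

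NCU07736, described as PEP5, the name of a yeast protein of the vacuolar tethering complexes, rose by a log2 fold change of 0.85 (SE 0.15, edgeR adjusted p = 0.0465). WT values were 87.3, 126 and 122 CPM early and 205, 253 and 199 CPM late. ΔMSN1 values were 202, 131 and 109 CPM early and 254, 222 and 250 CPM late. The early ΔMSN1 culture of 6 h, at 202 CPM, lay above the late WT culture of 22 h, at 199 CPM, although within each strain the windows were apart. The call was lost in 11 of 12 fits that left out 1 library, with an adjusted p of up to 0.126.

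The largest log2 fold change among the called genes was that of NCU02884, described as a hypothetical protein, at 2.70 (SE 0.33, edgeR adjusted p = 0.00369). It read 10.1, 40 and 20.4 CPM early and 209, 170 and 138 CPM late in WT. ΔMSN1 read 6.75, 7.69 and 2.68 CPM early and 47.3, 27.5 and 19.9 CPM late. The lowest late value of ΔMSN1 thus lay under the 2 highest early values of WT, and the windows separate only within each strain.

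The other 4 genes that rose have no informative name. NCU06912 went from 61.5 to 109 CPM early to 127 to 253 CPM late, with a log2 fold change of 1.15 (SE 0.19, edgeR adjusted p = 0.0291). NCU08193 went from 91.4 to 181 CPM to 118 to 550 CPM, with 1.27 (SE 0.21, edgeR adjusted p = 0.0298), and its windows overlapped in ΔMSN1. NCU08816, with 2.66 to 5.64 CPM early and 6.19 to 13.6 CPM late, and NCU02328, with 16.4 to 41.9 CPM early and 40.5 to 67.4 CPM late, were outside the rule for named genes and are given because they complete the count. Their log2 fold changes were 1.29 and 1.09, each with an edgeR adjusted p of 0.0298.

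Of the genes that fell, vvd (NCU03967) had the smallest p. WT read 47.8, 70.0 and 80.0 CPM at 6, 8 and 10 h and 21.6, 26.6 and 23.4 CPM at 18, 20 and 22 h. ΔMSN1 read 58.9, 64.2 and 85.4 CPM early and 27.5, 26.1 and 30.1 CPM late. Early values climbed within the window in both strains, late values varied little, and no early value of either strain reached down to any late value of either strain. Window means were 65.9 ± 16.5 and 23.9 ± 2.55 CPM in WT and 69.5 ± 14.0 and 27.9 ± 2.00 CPM in ΔMSN1 (SD, n = 3). The log2 fold change was -1.39 (SE 0.14, edgeR adjusted p = 0.000671), made up of -1.45 (SE 0.20) in WT and -1.32 (SE 0.20) in ΔMSN1, with an unadjusted interaction p of 0.652 in edgeR's test.

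Outside the windows, at 0 h, the end of the light period, vvd stood at 988 CPM in WT and reached 728 CPM in the knockout. It then lay at 61.5, 50.2 and 34.4 CPM at 12, 14 and 16 h in WT. The fall between the windows thus followed a larger fall from 0 to 2 h, to 37.0 CPM in WT and to 29.2 CPM in the knockout, and a rise to 80.0 and 85.4 CPM at 10 h.

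The hydrophobin gene eas (NCU08457), also known as ccg-2, encodes the protein that makes the conidial surface water repellent. WT values were 5490, 3300 and 3280 CPM early and 1400, 471 and 341 CPM late. ΔMSN1 values were 674, 3490 and 4040 CPM early and 580, 515 and 259 CPM late. The ΔMSN1 culture of 6 h stood far below the other early cultures, and its 674 CPM lay just above the 580 CPM of 18 h in the same strain and below the 1400 CPM of 18 h in WT. Over 12 libraries the log2 fold change was -2.53 (SE 0.44, edgeR adjusted p = 0.0432), the largest fall among the called genes and the one with the widest error. The call was lost in 10 of 12 fits that left out 1 library, with an adjusted p of up to 0.11.

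con-8 (NCU09235), a gene expressed as conidia form, fell by a log2 fold change of 0.70 (SE 0.13, edgeR adjusted p = 0.0465). WT values were 884, 704 and 763 CPM early and 568, 548 and 470 CPM late, and ΔMSN1 values were 644, 608 and 866 CPM early and 423, 451 and 314 CPM late. All late values lay below all early values across both strains. The call was near the threshold and was lost on leaving out any of the 12 libraries, with an adjusted p of up to 0.147.

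The unnamed genes that fell were NCU09253, NCU08455 and NCU06332. NCU09253 went from 73.0 to 126 CPM early to 52.7 to 79.6 CPM late, with a log2 fold change of -0.71 (SE 0.11, edgeR adjusted p = 0.0287). NCU08455 went from 24.6 to 58.6 CPM to 16.0 to 22.2 CPM, with -1.17 (SE 0.19, edgeR adjusted p = 0.0287), and lies 2 genes from eas in the reference order. NCU06332 went from 9.49 to 16.7 CPM to 6.13 to 9.09 CPM, with -0.74 (SE 0.13, edgeR adjusted p = 0.0465). For NCU08455 and NCU06332 no late value of either strain reached an early value.

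At the looser adjusted p of 0.1, 29 genes, or 0.393% of those tested, were reached, 19 higher and 10 lower. The 14 added genes include fsd-1, the gene of an Ndt80-type factor of female sexual development, with a log2 fold change of 0.68 (edgeR adjusted p = 0.0628). NCU01212 had the largest value among them, 3.25 (SE 0.64, edgeR adjusted p = 0.0662). Among the 29 genes, 3 pairs lie within 3 genes of each other: tcu-1 with NCU00829, NCU08193 with NCU08194, and eas with NCU08455. No such count was made over all genes tested, so the pairs are a description only. NCU08194 had a log2 fold change of 0.89 (edgeR adjusted p = 0.0628), in the direction of its neighbour.

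The windows were read against the 12 libraries that lie outside them, as a description. In 9 of 9 genes that rose, the mean at 12 to 16 h was above that at 0 to 4 h, and in 6 of 6 genes that fell it was below. Over all genes tested, the mean moved in the direction of the window comparison in 54.5%. The 0 to 4 h mean includes the 0 h cultures, taken at the end of the light period. For vvd it was 309 CPM, against 53.3 CPM at 12 to 16 h, and the direction of vvd here rests on the 0 h cultures. For tcu-1 the means over both strains were 15.2 CPM at 0 to 4 h, 20.3 at 6 to 10 h, 121 at 12 to 16 h and 81.2 at 18 to 22 h. For 6 of the 9 genes that rose, the 12 to 16 h mean lay above that of the late window, and for 3 of the 6 that fell it lay below. Over all genes tested, it lay beyond the late window in the direction of change in 37.8%. Of the genes that rose, tcu-1, NCU00829, tcu-3 and NCU02884 each had their highest value of both strains at 16 h. The tcu-1 level at 16 h was 232 CPM for WT, against 121 CPM for ΔMSN1. The mean of eas was 2220, 3380, 1850 and 594 CPM in the 4 windows in order, so it fell at each step after the early window. con-8 had means of 1390, 745, 456 and 462 CPM, and reached its late level at 12 to 16 h.

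**Figure D2:**
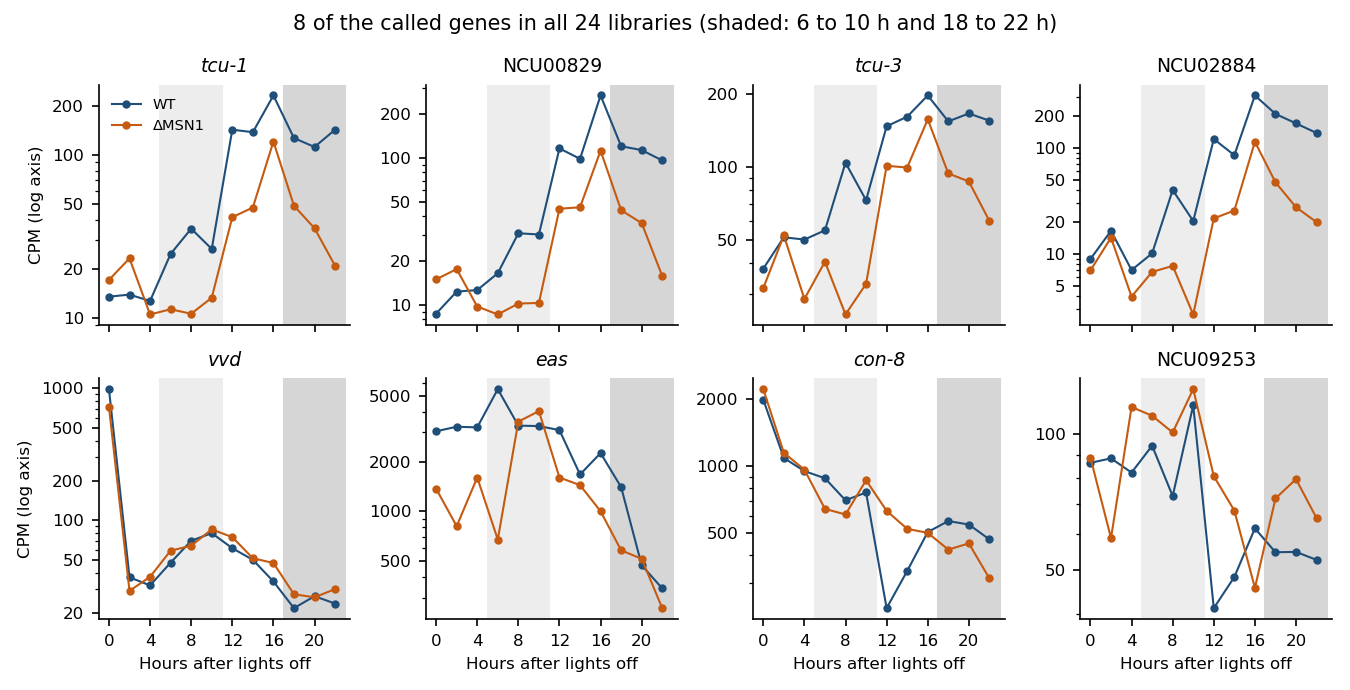
Level of 8 called genes by hour after lights off, in CPM on a log axis, WT in blue and ΔMSN1 in orange, 1 culture per point, with the windows shaded. The 4 genes of the upper row stand highest at 16 h, between the windows, and vvd falls from 988 and 728 CPM at 0 h, climbs back to 80.0 and 85.4 CPM at 10 h and declines from there.

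No clock gene other than vvd passed the test. frq (NCU02265) read 4.48, 5 and 12.0 CPM early and 13.8, 7.49 and 7.87 CPM late in WT, and 4.45, 5.53 and 8.67 CPM early and 7.67, 6.29 and 5.53 CPM late in ΔMSN1. Values climbed within the early window and were highest at 18 h within the late one, and the windows overlapped in both strains. Its log2 fold change was 0.20 (SE 0.26, edgeR adjusted p = 0.844). Between the windows frq reached 21.7 CPM at 16 h for WT and 15.1 CPM at 12 h for ΔMSN1.

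wc-1 ranged from 5.59 to 9 CPM early and from 6.13 to 8.75 CPM late, and frh from 5.70 to 7.32 and from 5.32 to 8.15 CPM. For wc-2 the early range was 22.8 to 36.0 CPM and the late range 19.2 to 34.5 CPM. ck-1a lay between 273 and 326 CPM early and between 302 and 345 CPM late. The morning repressor gene csp-1 had a log2 fold change of -0.35 (SE 0.11, edgeR adjusted p = 0.268), and sub-1, the gene of a GATA factor of the light response, had -0.34 (SE 0.14, edgeR adjusted p = 0.371). Neither passed, and no gene of the list other than vvd did: of 12 members tested 1 was called, 3 were lower and 0 higher at an unadjusted p under 0.05, and the median log2 fold change was -0.0446. Over all genes 0.203% were called, 5.67% were lower and 6.09% higher at that p, and the median was -0.00354.

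**Figure D3:**
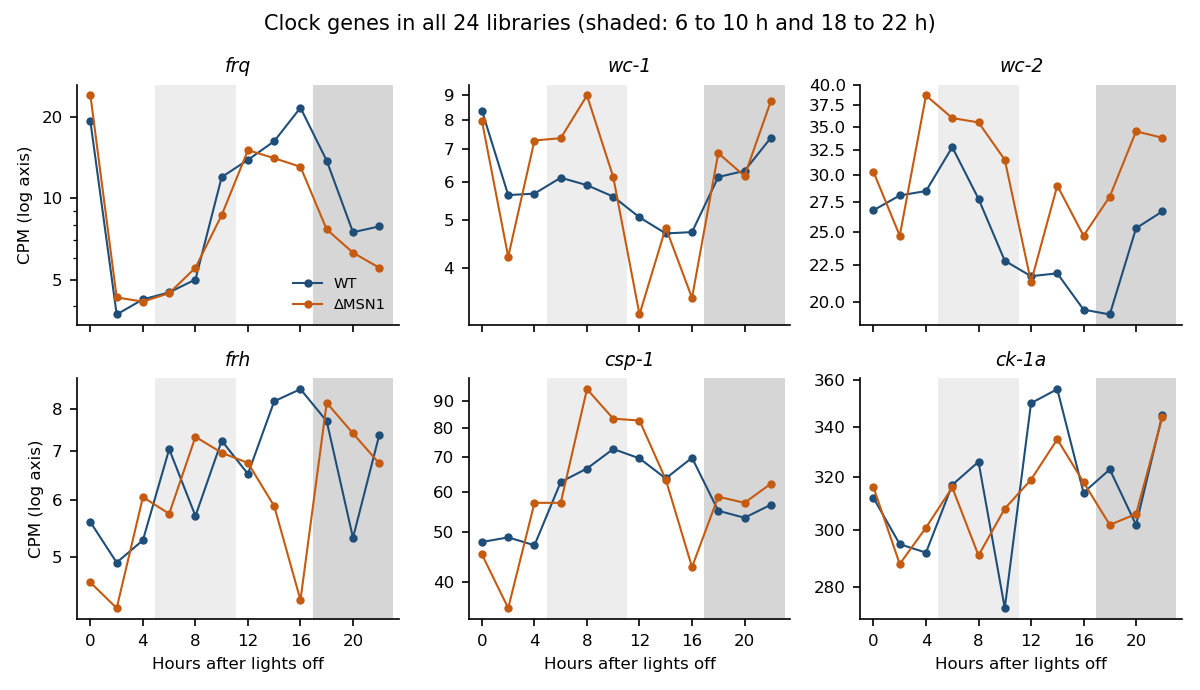
Level of 6 clock genes by hour after lights off, in CPM on a log axis, WT in blue and ΔMSN1 in orange, 1 culture per point, with the windows shaded. frq stands at 4.48 to 12.0 CPM early and 7.49 to 13.8 CPM late in WT and reaches higher values in between, with a climb that begins within the early window.

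Of 10 classical clock-controlled genes tested, 1 was called, eas, 3 were lower and 0 higher at an unadjusted p under 0.05, beside 0.203%, 5.67% and 6.09% over all genes, and the median was -0.113. ccg-13 had a log2 fold change of -1.03 (SE 0.34, edgeR adjusted p = 0.273), with WT at 26400, 25000 and 34500 CPM early and 16500, 12600 and 10100 CPM late. Its ΔMSN1 windows overlapped, at 5730 to 29000 CPM early and 4350 to 12100 CPM late. ccg-1, by contrast, had a log2 fold change of -0.05 (edgeR adjusted p = 0.957), with 15100 to 36700 CPM early and 18000 to 34100 CPM late, and reached 57100 CPM at 12 h in WT.

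Among 15 tested genes known to be induced by light, a list written after the files were seen, 2 were called lower, vvd and eas, beside 0.0814% over all genes. Both are also counted above, in the lists of clock genes and of clock-controlled genes. At an unadjusted p under 0.05, 6 were lower and 0 higher, where the background is 5.67% lower and 6.09% higher. The carotenoid gene al-2 read 138 to 159 CPM early and 104 to 129 CPM late in WT, and 84.8 to 122 and 75.5 to 94.8 CPM in ΔMSN1, where the windows overlapped. Its log2 fold change was -0.31 (SE 0.11, edgeR adjusted p = 0.273). The light-induced genes con-10, phr, al-3 and cao-2 had log2 fold changes of -0.07, -0.05, 0.05 and -0.03, none of which passed.

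Of 8 conidiation genes tested, con-8 was called lower and 2 were lower at an unadjusted p under 0.05, beside 0.0814% and 5.67% over all genes, with a median of -0.268. csp-2, the gene of a grainyhead-type factor needed for the separation of conidia, was the other of the 2. It read 34.1, 30.2 and 29.2 CPM early and 19.0, 15.3 and 22.6 CPM late in WT, and 23.1, 30.0 and 49.9 CPM early and 16.8, 22.5 and 22.2 CPM late in ΔMSN1. The windows did not overlap in either strain, but the log2 fold change of -0.73 (SE 0.18, edgeR adjusted p = 0.145) did not pass. fl, the gene of the main activator of conidiation, had -0.09 (edgeR adjusted p = 0.886), and con-6 had -0.63 with an SE of 0.52.

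The pathway lists were described by counts at an unadjusted p under 0.05, since none of their members passed the adjusted threshold. The lists drawn from gene descriptions hold only genes that the study's tables describe, mostly genes found rhythmic there, so they are no full census of a pathway. At this p, 6.09% of all genes tested were higher and 5.67% lower, and of the study's circadian genes 10.1% were higher and 10.7% lower. Of 9 ribosome biogenesis genes tested, 5 were higher and 0 lower, and all 9 had positive log2 fold changes, with a median of 0.263. NCU08595, described as a ribosome biogenesis protein, read 20.2 to 28.0 CPM early and 25.2 to 36.8 CPM late, with a log2 fold change of 0.42 (SE 0.11, edgeR adjusted p = 0.19). Of 9 aminoacyl-tRNA synthetases, 3 were higher and 0 lower with a median of 0.141, and of 10 translation factors 1 was higher and 0 lower with a median of 0.155. Over the 30 proteasome genes with such symbols, 1 was higher (3.33%) and 0 lower, below the share over all genes, with a median of 0.0846.

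Genes of the tricarboxylic acid cycle had negative log2 fold changes in 8 of 8, with a median of -0.204, and 1 of them, the fumarate hydratase gene tca-14, was lower at an unadjusted p under 0.05, at -0.44 (SE 0.13, edgeR adjusted p = 0.209). In the list of gluconeogenesis, the glyoxylate cycle and fermentation, 3 of 8 were lower and 0 higher, with a median of -0.258. Of these, acu-9, the malate synthase gene, had -0.53 (SE 0.16, edgeR adjusted p = 0.242), and NCU04823, described as an alcohol dehydrogenase, had -0.76 (SE 0.23, edgeR adjusted p = 0.242). The list was matched on words of descriptions, and its members leu-4 (-0.158) and ccr4 (0.0238) are not enzymes of the named pathways. Its median of -0.258 includes both. Of 9 genes of oxidative stress defence, 3 were lower and 0 higher, with a median of -0.183, where 5.67% of all genes were lower and 6.09% higher. The largest value was that of NCU09210, a dyp-type peroxidase gene, at -1.09 (SE 0.26, edgeR adjusted p = 0.145). Among 29 complex I genes, 1 was lower (3.45%) and 0 higher, below the share over all genes, with a median of -0.0608.

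In the other lists of 5 or more tested members, which cover ribosomal proteins, amino acid, sterol and fatty acid synthesis, glycolysis, transport, peptidases, chaperones, histones and chromatin, the cell cycle, kinases, transcription factors, the cell wall, plant cell wall degradation, peroxisomes, mitochondrial import, the vacuolar ATPase, carotenoids and mating, the medians lay between -0.117 and 0.137. Among 55 serine/threonine kinase genes 4 were higher (7.27%) and 6 lower (10.9%) at an unadjusted p under 0.05. Among 57 glycosyl hydrolase genes 2 were higher (3.51%) and 3 lower (5.26%), beside 6.09% and 5.67% over all genes. In the list of cell wall proteins, where 0 were higher and 4 of 21 lower, ncw-5 had a log2 fold change of -0.96 (SE 0.23, edgeR adjusted p = 0.146). The peptidase gene NCU07159, described as proteinase T, had a log2 fold change of 1.17 (SE 0.37, edgeR adjusted p = 0.257). It read 23.7 to 27.5 CPM early and 194, 71.9 and 61.6 CPM late in WT, and 13.4 to 19.6 CPM early and 15.7 to 20.3 CPM late in ΔMSN1, where the windows overlapped.

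In the gene sets that the study had found rhythmic in other WT libraries, not analysed here, the counts were as follows. Of 1159 circadian genes tested, 117 were higher and 124 lower at an unadjusted p under 0.05, that is 10.1% and 10.7%, against 6.09% and 5.67% over all genes. Of the circadian genes 1 was called in each direction, where 0.122% of all genes were called higher and 0.0814% lower. Of 101 second harmonic genes, 16 were higher and 2 lower with a median of 0.149, and of 447 genes of the third harmonic 8 were higher and 8 lower, 1.79% each, with a median of -0.029. Of the second harmonic genes 1 was called, and of the third harmonic genes 0, beside 0.203% over all genes.

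**Figure D4:**
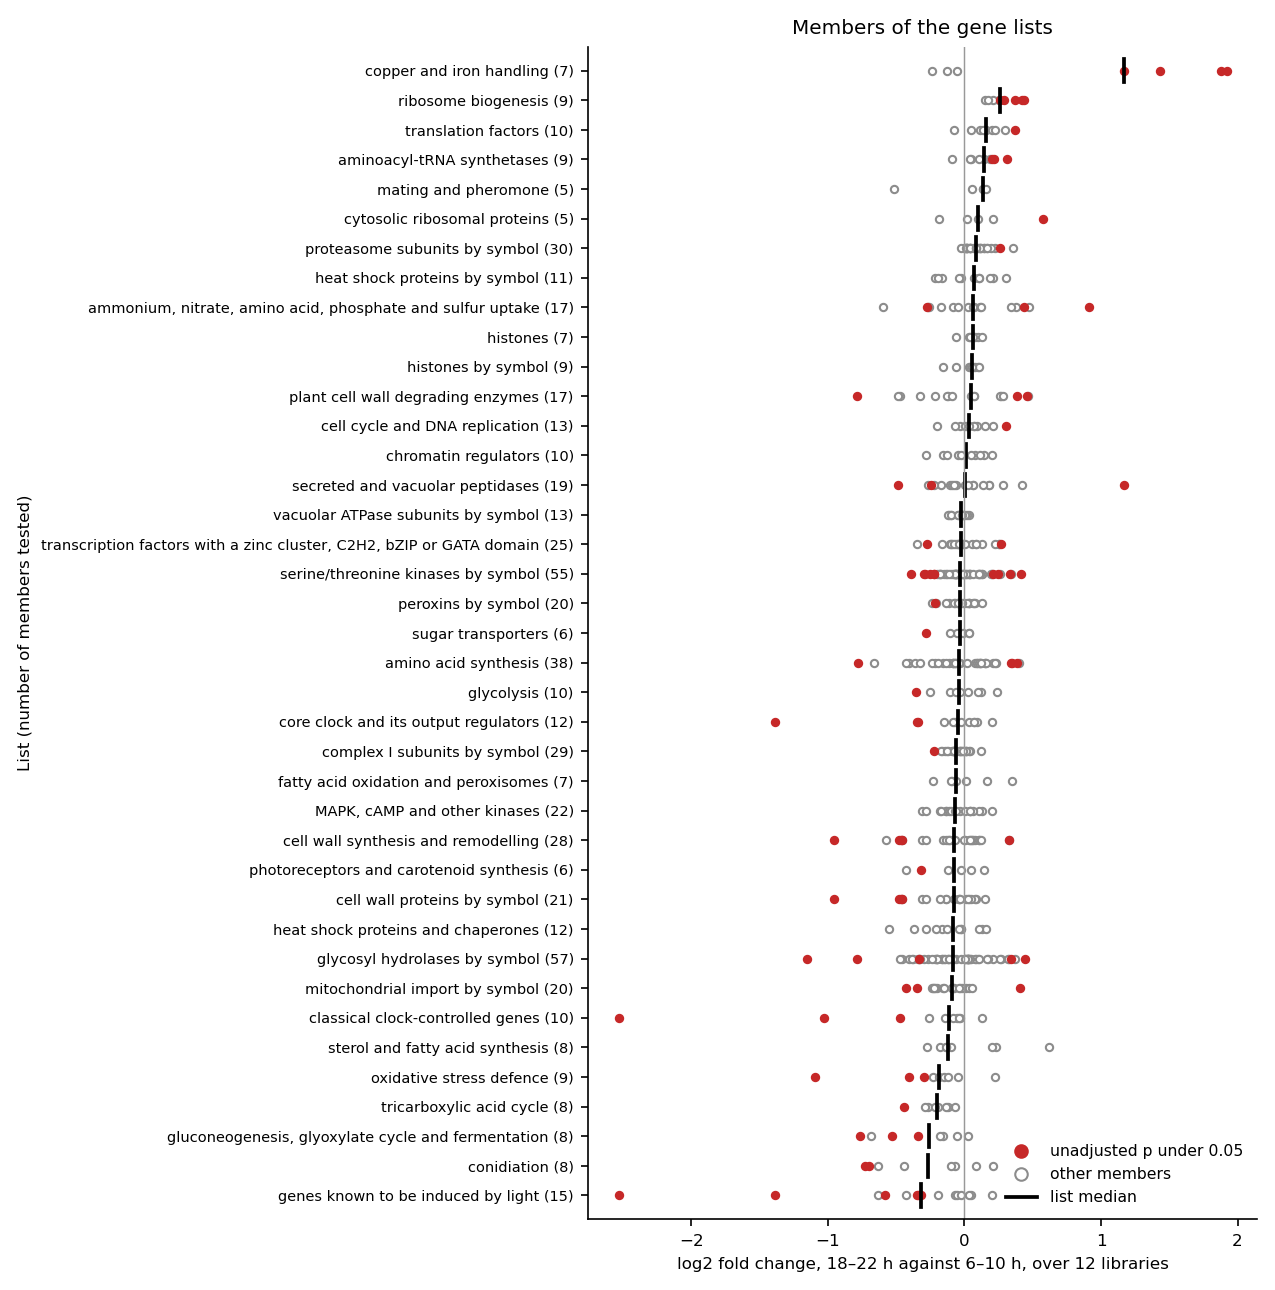
log2 fold change between the windows over 12 libraries for the members of each list with 5 or more tested members, without the study's rhythmic gene sets. Each point is 1 gene, red where the unadjusted p is under 0.05, and the black bar is the list median. The medians furthest from 0 are 1.17 for copper and iron and 0.263 for ribosome biogenesis on the high side. On the low side they are -0.314 for light-induced genes, -0.268 for conidiation, -0.258 for gluconeogenesis, the glyoxylate cycle and fermentation, and -0.204 for the tricarboxylic acid cycle. The list with the median of -0.258 also holds leu-4 and ccr4, which are not enzymes of its pathways. The copper and iron list was put together after the values were seen, and the light list after the files were seen.

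Each strain was also tested alone, with 3 cultures a window, in a fit of the 4 groups. In WT 7 genes passed, or 0.0949%, of which 5 (0.0678%) were higher and 2 (0.0271%) lower, with 557 genes (7.55%) at an unadjusted p under 0.05. Leaving out 1 library moved this count to between 1 and 17, with 1 call without WT at 6, 10 or 20 h or without ΔMSN1 at 6, 18 or 20 h and 17 without WT at 22 h. Of the 7, vvd, tcu-1, NCU00829 and NCU02884 were also called over both strains, while NCU01212, NCU05855 and NCU09342 were not. In ΔMSN1 0 genes passed in edgeR, with 428 (5.8%) at an unadjusted p under 0.05, 0 in limma-voom and 13 in DESeq2. Without ΔMSN1 at 22 h, 2 genes were called, and without WT at 6 h, 1. A gene called in WT and not in ΔMSN1 is not thereby shown to differ between the strains.

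NCU05855, described as an O-methyltransferase, read 24, 36.8 and 20.4 CPM early and 61.6, 92.7 and 71.2 CPM late in WT. In ΔMSN1 the values were 103, 83.9 and 70.4 CPM early and 100, 109 and 83.9 CPM late, so that both windows of the strain lay above the lowest late WT value. The log2 fold change was 1.49 (SE 0.24, edgeR adjusted p = 0.0481) in WT and 0.19 (SE 0.23) in ΔMSN1. NCU01212 read 66.4, 38.5 and 10.3 CPM late in WT against 0.764 to 3.45 CPM early, and 0.667 to 4.62 CPM in all ΔMSN1 libraries of both windows. Its late values lay above its early values in both strains. The log2 fold change was 4.34 (SE 0.669) in WT and 1.34 (SE 0.885) in ΔMSN1. NCU09342 fell in WT from 7.91 to 9.52 CPM to 2.93 to 4.6 CPM, and lay between 5.46 and 7.48 CPM in ΔMSN1.

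The test of the difference between strains called 0 genes in edgeR, with 215 genes (2.92%) at an unadjusted p under 0.05, a smallest adjusted p of 0.848, 0 calls in limma-voom and 5 in DESeq2. Without WT at 22 h, 4 genes were called. Labels of both strains carry the same run prefix, but a sequencing lane is named only for ΔMSN1, so levels of the strains cannot be told apart from lane. A constant shift between strains drops out of this test of window changes, but whether lanes differed among WT libraries is not known. The 8 named genes leading this ranking, none of which passed, were scon-2, gh61-9, NCU00306, NCU09844, NCU05855, NCU04942, NCU09800 and NCU01057. The last pair, described as taurine dioxygenases, enzymes that release sulfite from taurine, had the widest differences between strains among the 8.

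NCU01057 read 11.0, 17.3 and 7.85 CPM early and 372, 156 and 26.4 CPM late in WT, and 49.0, 46.7 and 5.09 CPM early and 7.28, 2.76 and 27.4 CPM late in ΔMSN1. NCU09800 read 3.95, 4.70 and 3.47 CPM early and 96.4, 52.0 and 7.60 CPM late in WT, and 16.8, 13.9 and 4.32 CPM early and 4.48, 2.84 and 13.8 CPM late in ΔMSN1. In WT the late values of both genes were highest at 18 h and fell to 22 h, and in ΔMSN1 the windows overlapped. The log2 fold changes of NCU01057 were 3.95 (SE 1.03) in WT and -1.57 (SE 1.01) in ΔMSN1, with an unadjusted interaction p of 0.00217 and an adjusted p of 0.848 in edgeR's test, so the difference did not pass.

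**Figure D5:**
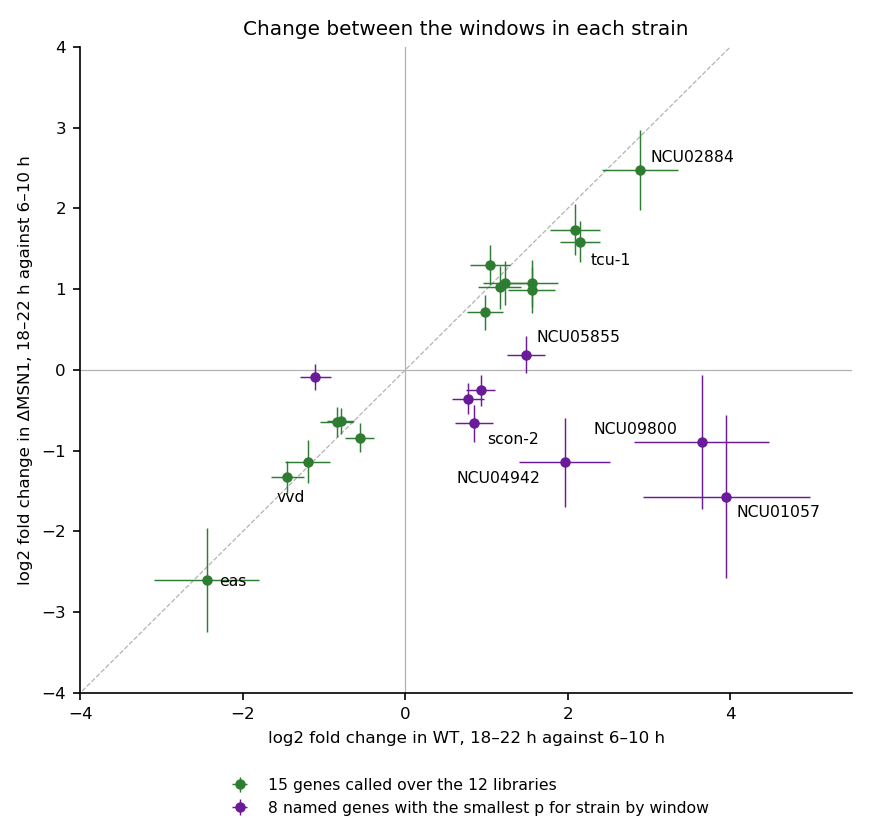
log2 fold change from the 6 to 10 h window to the 18 to 22 h window in WT (x axis) and in ΔMSN1 (y axis), with SE bars from the fit of 4 groups, for the 15 called genes (green) and the leading 8 named genes of the strain by window test (purple); the dashed line marks equal change. The green points run from eas, at -2.45 and -2.60, to NCU02884, at 2.89 and 2.47, and the purple points, chosen by their interaction p, reach 3.95 and -1.57 in NCU01057.

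Depth moved with the windows, as given above, and its part in the calls was not tested apart from fits that take it into account. With the log2 library total as a covariate 1 gene was called, tcu-1 (log2 fold change 2.21, edgeR adjusted p = 0.0423). With all 12 libraries thinned to the total of the shallowest, 17 genes were called, 13 of the 15 among them. Without WT at 18 h and ΔMSN1 at 22 h, the shallowest of the 12 libraries, 6 genes were called, all among the 15. The median log2 fold changes of short, middle and long genes were -0.0114, 0.00383 and -0.00445. On leaving out each library in turn, the count was again 15 without ΔMSN1 at 6 h, with 12 genes shared, fell to 4 without WT at 20 h or ΔMSN1 at 18 h, and lay between 5 and 9 without any other library. In these fits vvd, tcu-1, NCU00829 and NCU02884 stayed called in all 12, and tcu-3 lost its call in 2 of 12. The other 10 lost theirs in most of these fits: NCU09253 and NCU06912 in 7, NCU08455 and NCU02328 in 9, eas, NCU08193 and NCU08816 in 10, NCU07736 and NCU06332 in 11 and con-8 in 12.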

How the data were processed

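Poly(A) RNA of 24 cultures was sequenced; the values deposited by the authors are estimated counts per gene, made with kallisto 0.43.1 per the submitters' processing notes. The sources used here state no genome build, annotation or scaling to genes. Deposited estimated counts are not whole, and their smallest values fall with gene length, so levels are not compared between genes. Sums per library were 2458212 to 9829687 in the 12 libraries of the comparison. Of 9730 genes, 9729 matched the RefSeq gene table of assembly NC12, which gave symbols and gene order. Descriptions came from the study's supplementary gene tables. Promoter sequences were not analysed here.

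Groups were taken from strain and time labels. Values were rounded, genes whose mean over the 12 libraries reached 2 CPM kept (7373), and tested in edgeR 4.0.16 (R 4.3.3) with TMM scaling, the quasi-likelihood F test and a strain block, with Benjamini-Hochberg adjustment over all genes tested and a threshold of 0.05. A fit of the 4 groups gave the tests within strains and of strain by window. The SE is the absolute log2 fold change divided by the square root of F. The common biological coefficient of variation was 18.3%. The code was tested on simulated data. CPM printed use TMM factors over all 24 libraries.

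Named genes need a symbol or a description other than hypothetical protein. Named are the up to 14 largest rises and falls among called genes with at least 5 CPM in the higher window and no overlap in either strain; up to 4 tested members of each list with the smallest p; all clock genes and msn-1; the 8 genes with the smallest interaction p; and the 3 genes without a name with the smallest p in each direction. The comparison, the members of the 34 lists and the rules were chosen with earlier results of these data known, and 12 lists were added after the files were seen. The 25 lists built from descriptions draw on 1000 described genes. Lists with under 5 tested members (4) are not described. Alternatives used DESeq2 1.42.0, limma-voom (limma 3.58.1), other scalings, filters and subsets of libraries.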

Additional observations from a re-analysis of the deposited data

Results flagged for a closer look

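The genes below were taken from the named genes only. In each, all 3 late WT cultures lay on 1 side of the early WT cultures and all 3 late ΔMSN1 cultures lay on the opposite side of theirs. Since scon-2 and NCU00306 were named for their small interaction p, their p-values below add no support. Over all 7373 genes tested this occurred in 21 genes, beside 124 in which the windows were apart in the same direction in both strains. In each case the difference between strains was tested by edgeR's interaction term and did not pass after adjustment.

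For scon-2, the sulfur control gene, the log2 fold change was 0.85 in WT and -0.66 in ΔMSN1, a difference of -1.51 (unadjusted p = 0.000589, adjusted p = 0.848 in edgeR's test). WT read 9.61, 6.92 and 8.62 CPM early and 21.8, 14.4 and 11.0 CPM late, and ΔMSN1 read 11.9, 13.8 and 9.77 CPM early and 7.60, 6.87 and 8.54 CPM late. NCU00306, described as a multidrug transporter, had a log2 fold change of 0.78 in WT and -0.36 in ΔMSN1, a difference of -1.14 (unadjusted p = 0.00134, adjusted p = 0.848 in edgeR's test). WT read 10.7 to 14.3 CPM early and 17.2 to 28.1 CPM late, and ΔMSN1 read 15.5 to 20.5 CPM early and 12.7 to 14.1 CPM late. The histone variant gene hH3v had -0.20 in WT and 0.07 in ΔMSN1, a difference of 0.27 (unadjusted p = 0.123, adjusted p = 1 in edgeR's test), with windows separated by narrow gaps: 44.9 to 50.8 CPM against 36.9 to 44.6 CPM in WT and 43.9 to 46.4 CPM against 46.6 to 48 CPM in ΔMSN1.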

How the results depend on the processing

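The count of 15 calls over both strains became 74 with DESeq2 (43 higher, 31 lower, 14 shared), 57 with all 24 libraries in the fit (13 shared), 29 at an adjusted p under 0.1, 4 at 0.01, 8 without 22 h in both strains, 5 without ΔMSN1 at 8 and 10 h, 1 without the strain term, 1 with the log2 library total as covariate, and 6 without WT at 18 h and ΔMSN1 at 22 h, the shallowest libraries, a setting chosen after seeing the data, as was the thinned one with 17. It was 12 to 21 under the other scalings, filters and limma-voom, and 4 to 15 on leaving out 1 library. With the time position as a replicate block it was 10, 9 of them shared. This block put 6 with 18 h, 8 with 20 h and 10 with 22 h, in both strains together. The labels give no replicate numbers, so cultures of a block share a place in the window and not a replicate.

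The count of 7 in WT became 46 with DESeq2, 18 with all 24 libraries, 15 without 22 h, 12 at an adjusted p under 0.1, 4 with the replicate block, 2 with the length trend removed, 0 at 0.01 and 0 with the covariate, and 1 to 17 on leaving out 1 library. In ΔMSN1, 0 became 13 with DESeq2, 2 without 22 h, 1 with all 24 libraries and 0 to 2 on leaving out 1 library. For strain by window, 0 became 5 with DESeq2, 3 without 22 h and 0 to 4 on leaving out 1 library. The cause of these shifts was not tested.

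No log2 fold change of the 189 named genes changed sign with a call. In edgeR's test vvd lost its call with all 24 libraries in the fit (adjusted p = 0.419) and with the covariate (0.26), and tcu-1 without the strain term (0.215). NCU00829 and NCU02884 lost theirs without the strain term (0.217 and 0.228) and with the covariate (0.058 and 0.599). The log2 fold changes ranged from -1.52 to -1.31 for vvd, from 1.79 to 2.21 for tcu-1, from 1.79 to 2.36 for NCU00829 and from 2.5 to 2.95 for NCU02884.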
